A study of Mus musculus with 17 samples.

Results

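The genes described here are Lim2, Lgsn, Grifin, Birc7 and Lctl, a set of 5 out of the 21938 protein-coding genes of GENCODE vM21 on the assembled mouse chromosomes. They were listed by name as genes whose products are enriched in lens fibers, and the rule that names them uses no H3.3 value. Around each gene a window was taken that holds the gene body and 5 kb on each side, in mm10, the mouse assembly GRCm38. The window was compared with the islands of histone H3.3, that is, the stretches of the genome in which the authors called more ChIP reads than background. In each of 4 libraries the covered share of the window, the length of the longest island and the reads per kb of island were taken. An island that reaches beyond the window was counted with its whole length and all its reads.

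The libraries were made from lens epithelium and lens fibers of CD-1 mice, an outbred stock, at postnatal day 1 as the sample titles give it, with 2 biological replicates per compartment. Lenses were microdissected and pooled, with 150 lenses per sample in the labels, so that each library is an average over many animals and over cells of different maturity, in which the share of cells with H3.3 at a locus and its amount per cell cannot be told apart. No genetic change or treatment was used. Chromatin was precipitated with an antibody against H3.3, and neither the bisulfite data nor the pooled input of the series was analysed here.

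The lens is built from a single layer of epithelial cells at the front and a mass of fiber cells behind it. Fibers arise from epithelial cells that leave the cell cycle, elongate, lose their organelles and fill with crystallins and with membrane and cytoskeletal proteins found in few other cells. The variant H3.3 differs from the replication-linked forms of histone H3 in that nucleosomes receive it independently of DNA synthesis, at transcribed genes, promoters and enhancers among other places, and is therefore of interest in cells that no longer divide.

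The 5 proteins serve different sides of that program. LIM2, also called MP20, is an integral membrane protein of the fiber cell with a claudin-like fold, and its loss or mutation leads to cataract. Lengsin, the product of Lgsn, resembles glutamine synthetase and is found in differentiating fibers, where it binds intermediate filaments. GRIFIN is a relative of the galectins that accumulates at the boundary between fiber cells. Livin, the product of Birc7, belongs to the inhibitor of apoptosis proteins. The product of Lctl is a membrane protein of the Klotho family of glycosidase relatives, and it is needed for normal sutures, the seams where fiber tips meet.

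The 5 genes lie on 5 chromosomes. Lim2 (ENSMUSG00000093639.3) spans chr7:43427670-43435996 on the plus strand. Lgsn (ENSMUSG00000050217.13) spans chr1:31176401-31204725 on the plus strand, inside 4931428L18Rik, a gene on the opposite strand. Grifin (ENSMUSG00000036586.6) spans chr5:140563119-140565071 on the minus strand. Birc7 (ENSMUSG00000038840.7) spans chr2:180929023-180934010 on the plus strand. Lctl (ENSMUSG00000032401.15) spans chr9:64117147-64138118 on the plus strand. Grifin is the shortest of them with a body of 1953 bp and Lgsn the longest with 28325 bp, so that a window of 11953 bp stands beside one of 38325 bp.

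The promoters are shown because the covered stretches began on, beside or far from them. For each gene these are the 250 bases before the transcription start that RefSeq gives, in GRCm38.p6, written 5′ to 3′ in the direction of transcription. They lie at chr7:43429849-43430098 (Lim2, plus strand), chr1:31176185-31176434 (Lgsn, plus strand), chr5:140565068-140565317 (Grifin, minus strand), chr2:180928773-180929022 (Birc7, plus strand) and chr9:64116897-64117146 (Lctl, plus strand). Capitals mark exact matches on either strand to 1 of 4 motifs, the Maf recognition core TGCTGA, the Sox motif CATTGT, the TATA box TATAAA and the heat shock element GAANNTTC.
Lim2: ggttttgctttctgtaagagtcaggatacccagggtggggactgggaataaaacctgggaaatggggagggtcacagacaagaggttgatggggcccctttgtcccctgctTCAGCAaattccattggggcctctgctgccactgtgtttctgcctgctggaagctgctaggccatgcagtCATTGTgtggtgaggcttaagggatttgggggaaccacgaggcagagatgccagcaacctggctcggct
Lgsn: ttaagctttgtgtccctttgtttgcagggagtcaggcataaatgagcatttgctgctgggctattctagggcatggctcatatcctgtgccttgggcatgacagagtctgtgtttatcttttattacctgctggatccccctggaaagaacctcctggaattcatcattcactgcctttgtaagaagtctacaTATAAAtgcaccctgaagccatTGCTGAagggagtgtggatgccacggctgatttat
Grifin: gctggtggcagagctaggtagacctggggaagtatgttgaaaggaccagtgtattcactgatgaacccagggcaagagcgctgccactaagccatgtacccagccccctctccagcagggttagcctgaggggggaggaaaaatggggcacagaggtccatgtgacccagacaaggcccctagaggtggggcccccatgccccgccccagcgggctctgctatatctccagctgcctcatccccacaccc
Birc7: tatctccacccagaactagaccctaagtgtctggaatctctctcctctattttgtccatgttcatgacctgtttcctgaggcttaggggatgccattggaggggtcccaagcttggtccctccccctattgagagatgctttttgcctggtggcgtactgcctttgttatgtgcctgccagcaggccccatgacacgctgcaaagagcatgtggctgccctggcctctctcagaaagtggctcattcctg
Lctl: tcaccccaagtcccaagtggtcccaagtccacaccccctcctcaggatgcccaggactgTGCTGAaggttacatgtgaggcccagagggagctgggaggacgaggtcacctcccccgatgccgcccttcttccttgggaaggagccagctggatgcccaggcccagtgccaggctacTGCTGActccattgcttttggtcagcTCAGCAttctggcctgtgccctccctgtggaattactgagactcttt

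Lctl held 3 Maf cores in these bases, from -191 to -186, from -73 to -68 and, on the minus strand, from -47 to -42. Lim2 held 1 on the minus strand from -139 to -134 and Lgsn 1 from -35 to -30, while Grifin and Birc7 had none. Of all 32841 RefSeq promoters of mouse, 16.1% have at least 1 Maf core in the same 250 bases and 0.146% have 3 or more. The limit of 3 is the count of Lctl itself, the highest of the 5, so that this share is a description and no test. The Sox motif occurred once in Lim2, from -69 to -64 (10.7% of all promoters hold it), and the TATA box once in Lgsn, from -57 to -52 (12.4% of all promoters). The heat shock element, present in 6.70% of promoters, was found in none of the 5. E boxes, CANNTG, were not capitalised, occur in 66.2% of promoters and were found in all but Lim2. No match overlapped that of another motif, and a match of letters is not a binding site.

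The promoters had fewer CpG dinucleotides for their GC content than the median promoter, Lgsn the least clearly. Over the 250 bases before and 50 after the start, the observed over expected CpG ratio was 0.0891 in Lim2, 0.108 in Grifin, 0.115 in Lctl, 0.138 in Birc7 and 0.240 in Lgsn, each below the median over all promoters of 0.384. The GC content was 56%, 61%, 59.3%, 54% and 47.3% in that order, against a median of 52.7%. Fiber islands covered the promoters of Lim2, Grifin, Birc7 and Lctl in full in both replicates. Epithelium islands covered 39.0% and 100% of the promoter of Grifin and 100% and 0% of that of Birc7 in replicates 1 and 2, and none of the other 3. The promoter of Lgsn was in no island.

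The fiber lists are larger, which bears on every comparison below. They held 27059 and 35940 islands over 178 and 188 Mb, against 10389 and 14434 islands over 45.4 and 48.9 Mb in epithelium. The 5041885 and 5359085 reads in fiber islands and the 1331369 and 1430373 in epithelium islands do not give sequencing depth, which is unknown, so that "no island" means only that none was called. Over all protein-coding genes the mean covered share of the window was 21.0% and 20.9% in fibers and 7.40% and 7.66% in epithelium, and the median difference between fibers and epithelium was 4.72 percentage points. Against marker genes, windows of 4 other fiber genes (Mip, Gja3, Bfsp1 and Bfsp2) were covered more in both fiber libraries, with summed shares of 380% and 381% against 57.5% and 101.98%, but so were 3 of 4 epithelial genes (Foxe3, Cdh1 and Pdgfra, not Gja1), with summed shares of 198% and 226% in fibers and 40.7% and 108% in epithelium. Marker genes of other eye cells had summed shares of 60.4% and 28.4% in fibers and 57.9% and 12.99% in epithelium over 3 retinal genes (Crx at 0 throughout), 20.9% and 17.4% against 4.32% and 8.68% over 3 endothelial genes (Kdr at 0 throughout), and 0% and 4.85% against 0% and 0% over 2 genes of pigmented cells (Tyr at 0 throughout). The 2 blood and 2 mesenchymal genes were at 0 in all libraries. The part of such cells in the results was not tested.

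Of the 5 genes, 4 had a larger covered share in both fiber libraries than in either epithelium library, and the remaining gene, Lgsn, had no island in any library. This separation was common, since 45.0% of all protein-coding genes showed it and 0.670% showed the reverse. The 4 genes were Lim2, Grifin, Birc7 and Lctl, and their longest islands separated in the same way, as did those of 44.2% of all genes. An exact two-sided permutation test of 2 against 2 libraries cannot go below p = 0.33, and each of these 4 comparisons gave that p in covered share and in longest island. The median difference over the 5 genes was 29.4 percentage points, the value of Birc7 itself, against 4.72 over all genes. Without 1 library at a time it ranged from 24.5 (without fiber replicate 1, 4.73 over all genes) to 50.6 (without fiber replicate 2, 2.02 over all genes). With equal numbers of islands per library it was 22.04 by most reads and 0 by highest reads per kb (0 over all genes in both). Within the 5 the patterns differed in kind. Lim2 and Lctl had islands in both fiber libraries and in no epithelium library, like 15.2% of all genes. Grifin and Birc7 had an island in all 4 libraries, like 23.9% of genes, and Lgsn was among the 35.5% of genes with none.

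**Figure D1:**
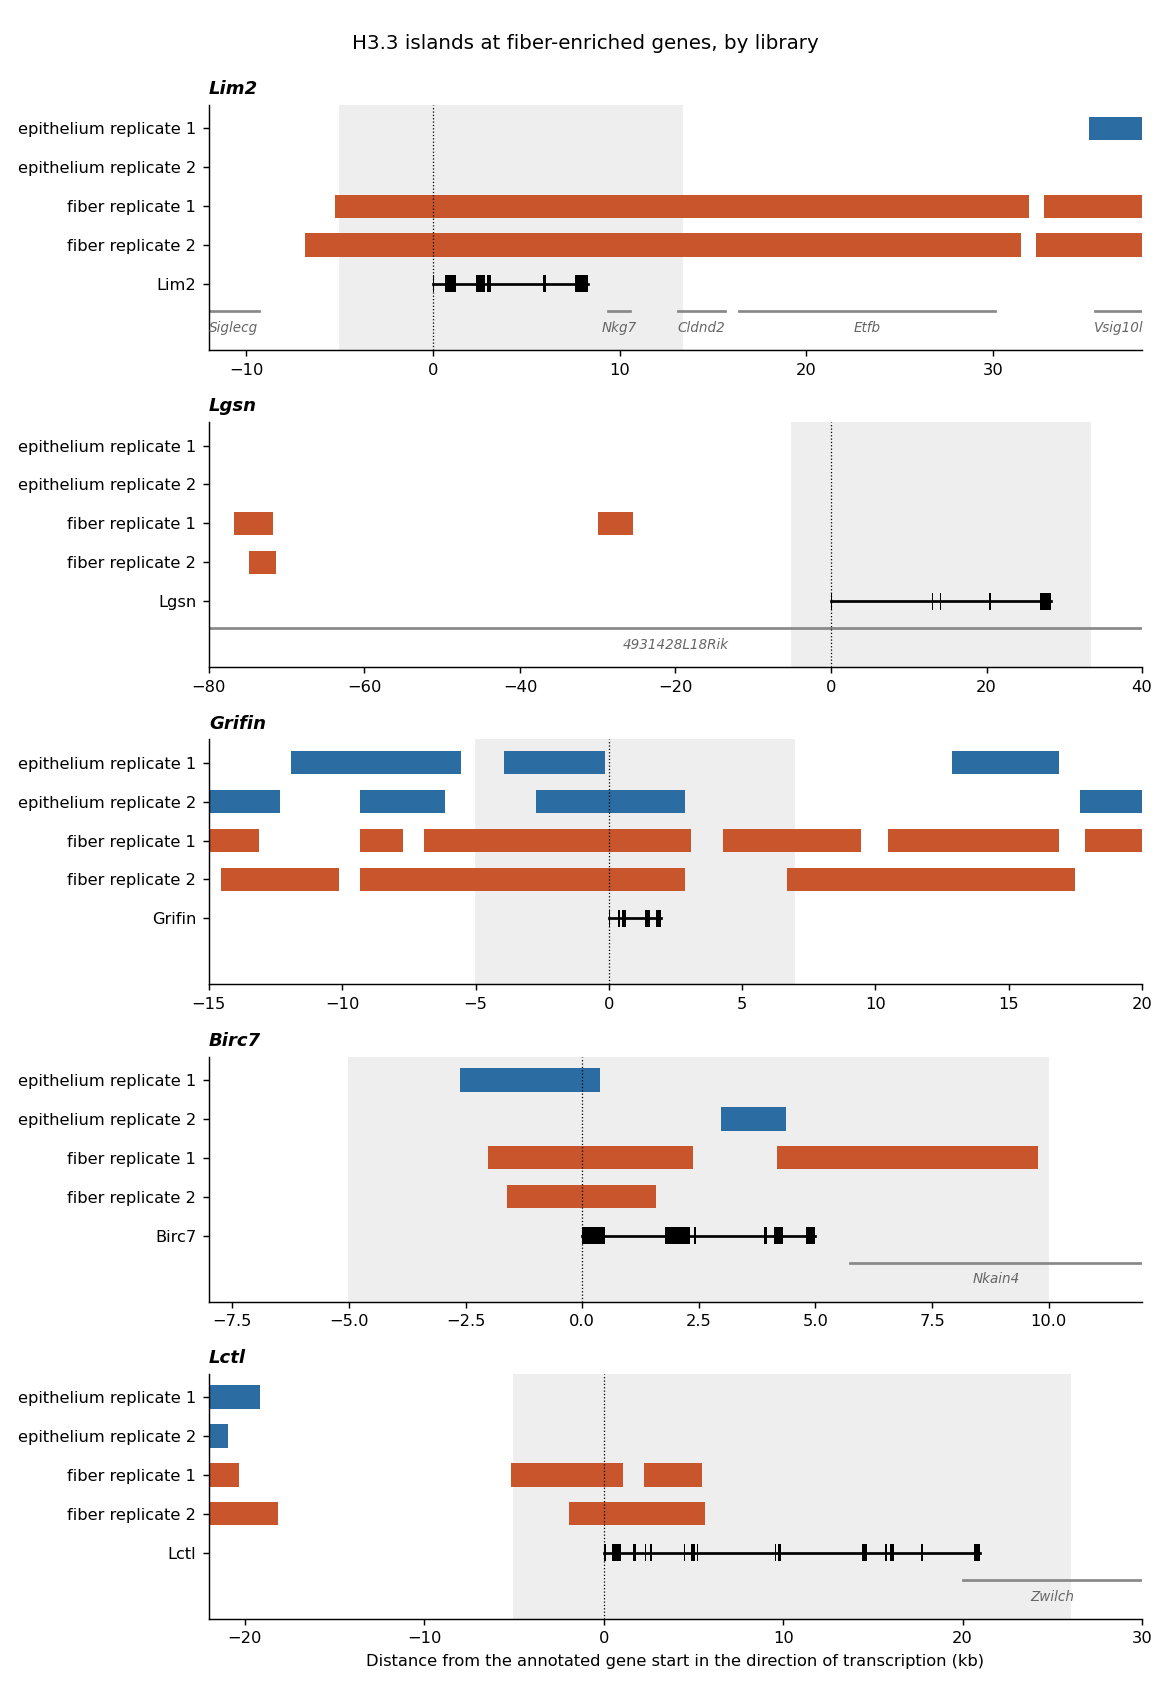
H3.3 islands at the 5 genes, with the distance from the annotated gene start in kb, in the direction of transcription, on the x axis. Bars are called islands of the epithelium libraries (blue) and fiber libraries (orange), black bars are exons, grey lines are other protein-coding genes and grey shading is the window; the fiber bars run past the whole Lim2 window, whereas none enters that of Lgsn.

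Lim2 showed the widest difference. Its window of 18327 bp was covered by 0% in both epithelium libraries and by 100% in both fiber libraries, each time by a single island. The groups were as far apart as this measure allows, and the replicates were alike (p = 0.33 by the exact permutation test). The island of fiber replicate 1 spanned chr7:43422401-43459600, which is 37200 bp with 1319 reads or 35.5 reads per kb. In fiber replicate 2 it spanned chr7:43420801-43459200, which is 38400 bp with 1371 reads or 35.7 reads per kb. The mean length was 37800 ± 849 bp (SD, n = 2), and these islands were longer than 99.5% and 99.8% of the islands of their libraries and denser than 93.3% and 92.0% of them.

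The Lim2 island was not limited to Lim2. Measured from the annotated start it ran from -5269 to 31930 bp in replicate 1 and from -6869 to 31530 bp in replicate 2, so that about as much of it lay outside the window, 18873 and 20073 bp, as inside. It took in 3 further protein-coding genes whole, Nkg7, a membrane protein gene known from cytotoxic lymphocytes, Cldnd2, a claudin domain gene, and Etfb, which encodes the beta subunit of the mitochondrial electron transfer flavoprotein. The bodies of all 3 were covered by 100% in both fiber libraries and by 0% in both epithelium libraries. It also covered 95.9% of Gm45233 in each fiber library, a gene model that overlaps Etfb, and epithelium replicate 1 covered 4.04% of it. The nearest epithelium islands lay 26805 and 30005 bp from the body of Lim2. Since the annotated gene begins with a retained-intron transcript and the coding transcript begins further downstream at 43430088, the start was checked in both: the fiber islands cover either.

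A window covered in full in both fiber libraries was rare. It was found for 78 genes, 0.356% of all, among them Mip and, of the 5 genes, only Lim2. Full cover in both fiber libraries without any epithelium island was found for 3 genes, 0.0137%, which were Lim2 and its neighbors Nkg7 and Cldnd2 under the same island, so that they are a single locus. Both limits are the values of Lim2 itself, so that these shares describe its place among genes and are no test. Window length was not taken into account. Apart from the Lim2 island, there were 3 and 6 islands in fibers and 1 in each epithelium library within 500 kb on each side, covering 1.55% and 2.74% against 0.397% and 0.139%. Of the stretches of 75 nt in the window, 1 read length, 0.285% occur more than once in the genome in identical form, and near-identical copies were not searched.

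**Figure D2:**
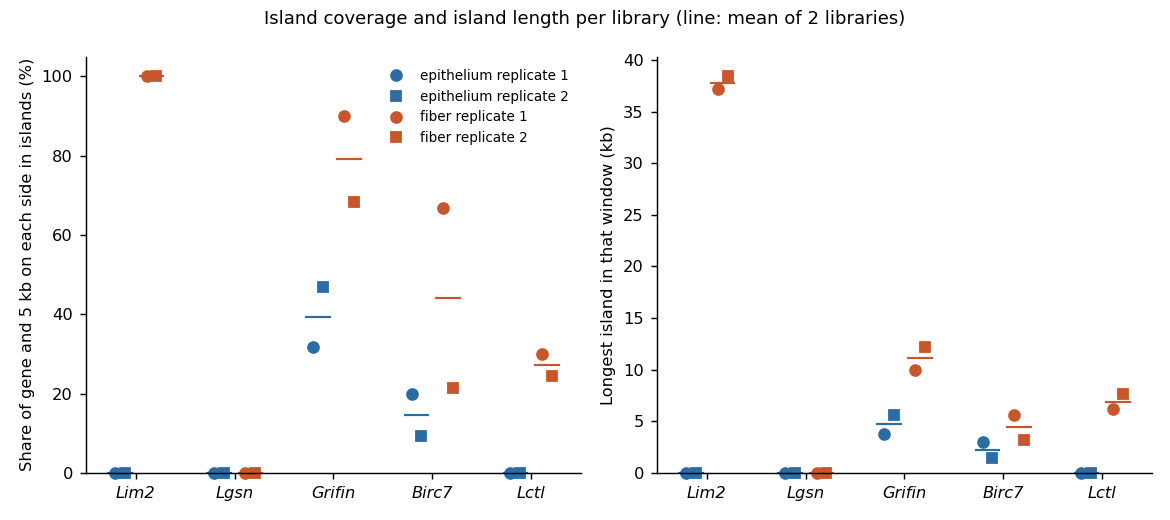
Covered share of the window in % (left) and longest island in kb (right) for each gene and library, with points for single libraries and a line for the mean of 2 libraries. Lim2 lies at 0% in epithelium and 100% in fibers, and the points of Birc7 nearly meet, at 20.02% in epithelium replicate 1 and 21.4% in fiber replicate 2.

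Lgsn had no called island in its window of 38325 bp in any library, so that the covered share was 0% in all 4 (exact permutation test, two-sided, p = 1). The same held with 10 kb on each side. In fiber replicate 1 the nearest island lay 25401 bp upstream at chr1:31146401-31151000, with 4600 bp and 133 reads, and in fiber replicate 2 it lay 71401 bp upstream at chr1:31101601-31105000, with 3400 bp and 100 reads. Both are inside 4931428L18Rik, whose body was covered by 4.27% and 1.51% in fibers and by 0% in both epithelium libraries. Downstream, the nearest fiber islands were 1836476 and 1514276 bp away. The nearest epithelium islands were 3296876 and 2804676 bp away, so that Lgsn lies in a long stretch without called islands in that compartment. Within 500 kb on each side fibers had 3 and 4 islands, over 1.44% and 1.54% of the sequence, while over the whole genome 6.52% and 6.89% was covered. Repeated stretches of 75 nt made up 0.790% of the window.

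Grifin carried H3.3 islands in both compartments. Epithelium replicate 1 had a covered share of 31.8% and epithelium replicate 2 of 46.9%, while fiber replicates 1 and 2 reached 90.0% and 68.2%. Both fiber values lay above both epithelium values. The means were 39.3% ± 10.6 and 79.1% ± 15.4 (SD, n = 2), a difference of 39.8 percentage points and a ratio of 2.01, with p = 0.33 by the exact permutation test. The longest island was 3800 and 5600 bp in epithelium and 10000 and 12200 bp in fibers, with means of 4700 ± 1273 and 11100 ± 1556 bp (SD, n = 2).

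The islands at Grifin lay in different places. In epithelium replicate 1 the island ended 130 bp before the gene at chr5:140565201-140569000, so that it covered 76.0% of the 5 kb upstream and 0% of the body. In epithelium replicate 2, at chr5:140562201-140567800, and in both fiber replicates, at chr5:140562001-140572000 and chr5:140562201-140574400, the body was covered in full. The fiber libraries and epithelium replicate 2 thus differed in the flanks only. The upstream 5 kb were covered by 76.0% and 54.6% in epithelium and by 100% in both fiber libraries. With the body alone the epithelium values were 0% and 100%, the fiber values 100% and 100%, and the groups overlapped (exact permutation test, two-sided, p = 1). With 2 kb on each side the difference was 26.9 percentage points and the groups also overlapped. Of the 8153 bp covered in both fiber libraries, 6800 bp (83.4%) were also in an island of at least 1 epithelium library.

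Reads per kb at Grifin went the other way. They were 36.8 and 36.1 in epithelium and 32.8 and 33.1 in fibers, or 36.5 ± 0.545 against 33.0 ± 0.213 (SD, n = 2), a difference of -3.48 (p = 0.33 by the exact permutation test). Among the 5246 genes with islands in all 4 libraries, 16.3% had both epithelium values above both fiber values. The median over all islands had the same order, with 28.3 and 28.1 reads per kb in epithelium and 27.4 and 27.5 in fibers. Reads were not scaled to depth in these values. The order rests on a second fiber island downstream of the gene, of 26.0 reads per kb in replicate 1 and 31.2 in replicate 2, while the fiber islands over the gene itself had 36.4 and 34.8. Of the downstream island of replicate 2, chr5:140547601-140558400, 10518 of 10800 bp lay outside the window, yet it gave 337 of the 762 reads counted. In replicate 1 it was chr5:140555601-140560800, with 2518 of 5200 bp outside the window. With 10 kb on each side the difference was 1.21 and the groups overlapped. Downstream of Grifin 70.2% of the stretches of 75 nt in the 5 kb flank are repeated elsewhere in the genome, against 0% in the body and 0.467% upstream. In the downstream islands the repeated share was 47.3% in fiber replicate 1 and 4.38% in fiber replicate 2. The part of these repeats in the reads and cover of the downstream islands was not tested. The region is rich in islands, with 61 and 58 in fibers and 36 and 42 in epithelium within 500 kb on each side.

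**Figure D3:**
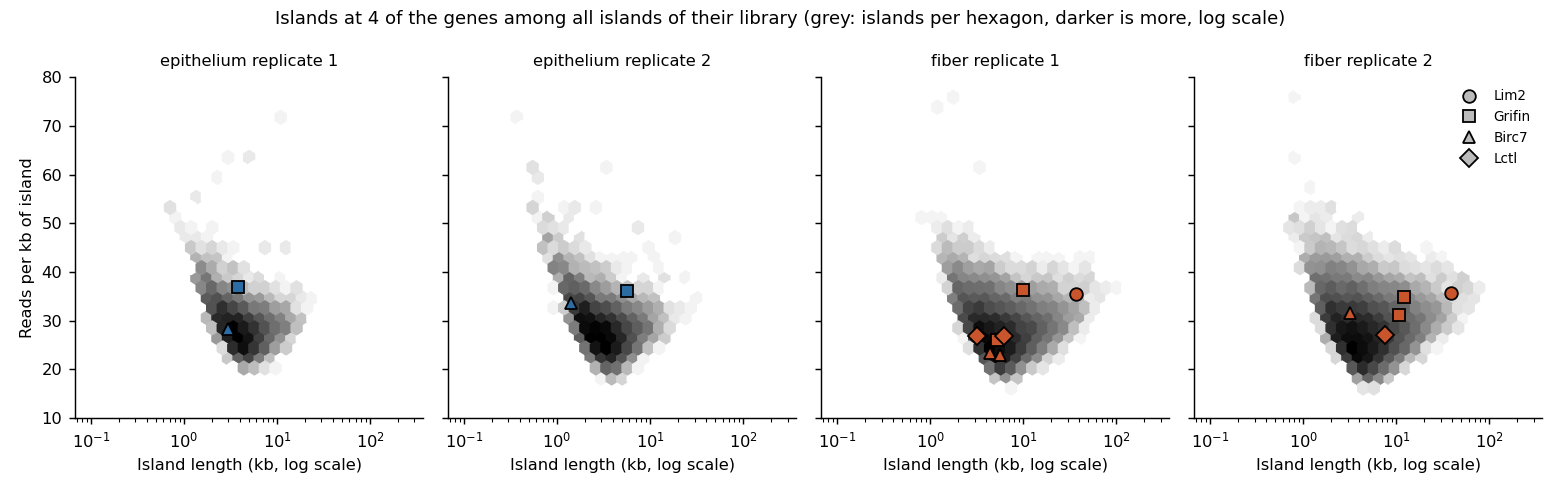
Reads per kb of island against island length (kb, log scale) in each library, with all islands of the library as grey hexagons and the islands at Lim2, Grifin, Birc7 and Lctl as symbols. The Lim2 islands of 37200 and 38400 bp sit at the long end at 35.5 and 35.7 reads per kb. The Lctl islands, at 26.8 to 27.1 reads per kb, lie near the middle of their libraries in reads per kb but not all in length.

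Birc7 had the least even values of the 5. Epithelium replicate 1 had a covered share of 20.02% and epithelium replicate 2 of 9.34%, while fiber replicates 1 and 2 reached 66.7% and 21.4%. The fiber values lay above the epithelium values, but fiber replicate 2 exceeded epithelium replicate 1 by 200 bp, 3200 against 3000 bp, which is 1 window of the island caller. The means were 14.7% ± 7.55 and 44.04% ± 32.1 (SD, n = 2), a difference of 29.4 percentage points that is smaller than the SD of the fiber pair (p = 0.33 by the exact permutation test). It was 6.67 without fiber replicate 1 and 52.0 without fiber replicate 2. When every library gave the same number of islands, 10389, the direction turned, to -10.0 with the islands of most reads and to -4.00 with those of the highest reads per kb.

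The islands at Birc7 also differed in place. Epithelium replicate 1 had an island of 3000 bp over the start, from -2622 to 377 bp, and epithelium replicate 2 an island of 1400 bp inside the gene, from 2978 to 4377 bp, which left the start free. These had no base in common. Both fiber libraries had an island over the start, of 4400 bp from -2022 to 2377 bp and of 3200 bp from -1622 to 1577 bp. Fiber replicate 1 had another of 5600 bp over the end of Birc7, which reached into Nkain4, a neighbor on the opposite strand, and which accounts for the 95.8% cover of the downstream 5 kb against 0% in the other 3 libraries. The longest island was 3000 and 1400 bp in epithelium and 5600 and 3200 bp in fibers, a mean difference of 2200 bp that was 1000 bp without fiber replicate 1, 3400 bp without fiber replicate 2 and 1400 bp without epithelium replicate 2. Reads per kb were 28.3 and 33.6 in epithelium and 23.2 and 31.6 in fibers, which overlapped (difference -3.57, exact permutation test, two-sided, p = 0.67). The islands of fiber replicate 1 were among the sparser ones, denser than 13.5% and 10.9% of the islands of that library.

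Lctl had islands at its start in fibers only. Its covered share was 0% in both epithelium libraries and 29.9% and 24.5% in fiber replicates 1 and 2, with a fiber mean of 27.2% ± 3.78 (SD, n = 2), so that the difference exceeded the spread between replicates (p = 0.33 by the exact permutation test). Fiber replicate 1 had an island of 6200 bp at chr9:64112001-64118200 and another of 3200 bp at chr9:64119401-64122600. Fiber replicate 2 had 1 island of 7600 bp at chr9:64115201-64122800, which spans the gap between those 2. The replicates had 6200 of 10654 covered bp in common (58.2%).

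The last of these islands ended 5453 and 5653 bp from the start, in a gene body of 20972 bp. Together they touched 7 and 8 of the 15 exons and covered 47.8% and 54.1% of exon sequence, against 16.4% and 23.1% of intron sequence, as the exons are crowded toward the start. The downstream 5 kb, which lie within the neighbor Zwilch, a kinetochore gene on the opposite strand whose end overlaps that of Lctl, were free of islands in all 4 libraries. Unlike those of Lim2, the islands at Lctl were of ordinary density. With 26.8, 26.9 and 27.1 reads per kb they were denser than 44.1%, 44.9% and 46.2% of the islands of their libraries, and none was left when islands below the median reads per kb of each library were dropped. The nearest epithelium islands lay 19147 and 20947 bp away. Within 500 kb on each side epithelium had 34 and 50 islands and fibers 40 and 49, so that Lctl, unlike Lim2 and Lgsn, lies in a region with many epithelium islands.

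**Figure D4:**
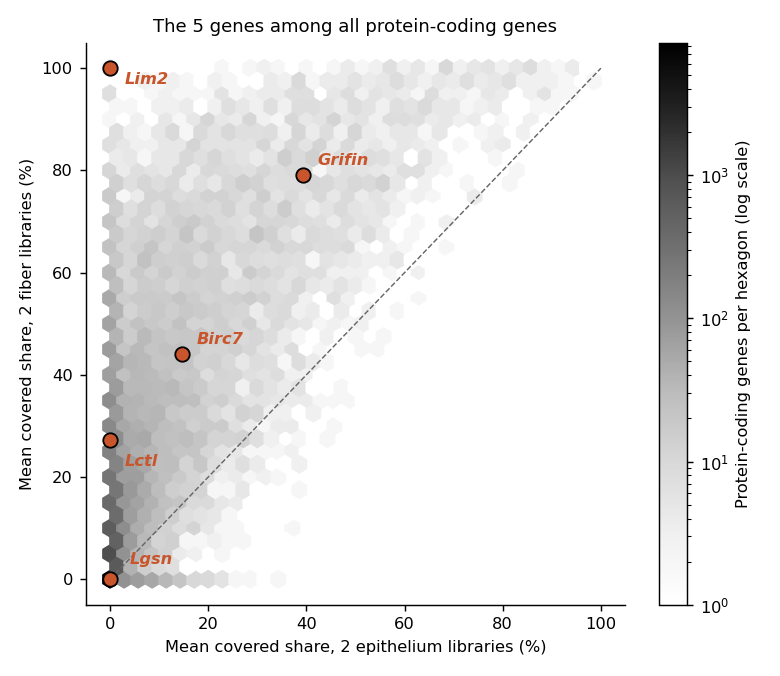
Mean covered share of the gene window in the 2 fiber libraries against that in the 2 epithelium libraries (both in %), with all 21938 protein-coding genes as grey hexagons (darker is more genes, log scale) and the 5 genes as points. Most genes lie on or above the dashed line of equal shares; Lim2 stands at 0% and 100%, and Lgsn at 0% on both axes.

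Among all genes, the 4 covered genes held different ranks. In fiber replicates 1 and 2 the covered share of Lim2 was above that of 98.9% and 99.3% of genes, that of Grifin above 96.5% and 90.5%, that of Birc7 above 88.6% and 65.2% and that of Lctl above 71.5% and 67.9%. In epithelium, Grifin was above 91.4% and 95.9% of genes and Birc7 above 86.0% and 76.7%. By cover of the window, Grifin thus ranked high in both compartments. In epithelium replicate 1 that cover was all upstream, with 0% of the body. Window length, shortest at Grifin among the 5, was not taken into account in these ranks. When the lists were cut to equal numbers of islands, 3 of the 5 genes kept both fiber values above both epithelium values by most reads (Lim2, Grifin and Lctl, against 21.4% of all genes) and 2 by highest reads per kb (Lim2 and Grifin, against 15.6%).

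The genes most like each of the 5 were sought by the covered share of the upstream flank, the body and the downstream flank in the 4 libraries, as the smallest Euclidean distance over these 12 values. The 5 genes and genes whose window overlaps that of the gene compared were left out. At Lim2 this removed Nkg7 and Cldnd2, whose windows had the same shares of 0% in epithelium and 100% in fibers. Among the genes searched, the nearest to Lim2 were Crygd, a gamma-crystallin gene, and Gm21886, both at a distance of 16, and Pla2g16, a phospholipase gene, at 20.3. Their windows were covered by 0% in both epithelium libraries and by between 90.8% and 100% in fibers. The nearest to Lctl were Ptpn2, a tyrosine phosphatase gene, at 6.29, Tmem217 at 6.49 and Gxylt1, a xylosyltransferase gene, at 6.82. For Grifin and Birc7, which unlike Lim2 and Lctl had islands in epithelium too, the distances were larger. How far genes in general lie from their nearest match is not given here, so these distances cannot be called unusual. The nearest to Grifin were Hist1h3d, a histone H3 gene, at 52.0, Hypk at 53.2 and Gpaa1 at 54.8, and the nearest to Birc7 were Prdm10 at 48.4, Fam192a at 53.9 and Atp6v0d1 at 54.7. Lgsn was tied at a distance of 0 with the 7790 other genes that had no island.

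Relatives of the 5 genes by protein family, 21 in all, were compared in the same way. Both fiber values lay above both epithelium values in 9 of them (42.9%, near the 45.0% of all genes), both epithelium values above in 1, the groups overlapped in 9 and 2 had no island (Emp2 and Xiap). The median difference was 5.91 percentage points, against 4.72 over all genes. Pmp22, the peripheral myelin protein gene related to Lim2, had 20.7% and 26.6% in epithelium and 84.7% and 90.6% in fibers, while its relative Emp3 overlapped with 58.3% and 77.6% against 61.3% and 76.2%. Glul, the glutamine synthetase gene to which Lgsn is related, had 6.07% and 0% in epithelium and 27.3% and 17.2% in fibers, unlike Lgsn itself.

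The galectin genes, relatives of Grifin, went in both directions. Lgals12 had 0% and 0% in epithelium and 74.7% and 77.6% in fibers, and Lgals1 had 43.7% and 35.4% against 78.2% and 54.9%. Lgals2 was the gene with the reverse order, with 50.04% and 17.2% in epithelium and no island in fibers. Among the inhibitor of apoptosis genes, Birc2 had 0% and 5.55% in epithelium and 27.7% and 25.7% in fibers, whereas Birc5, which also serves in cell division, overlapped with 57.9% and 30.3% against 73.6% and 55.4%. Of the relatives of Lctl, Klb had 0% and 0% against 11.8% and 8.33%, and Lct and Kl had islands in 1 fiber library each. The families are of unequal size and were picked by name, so that nothing particular to them follows from these counts.

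**Figure D5:**
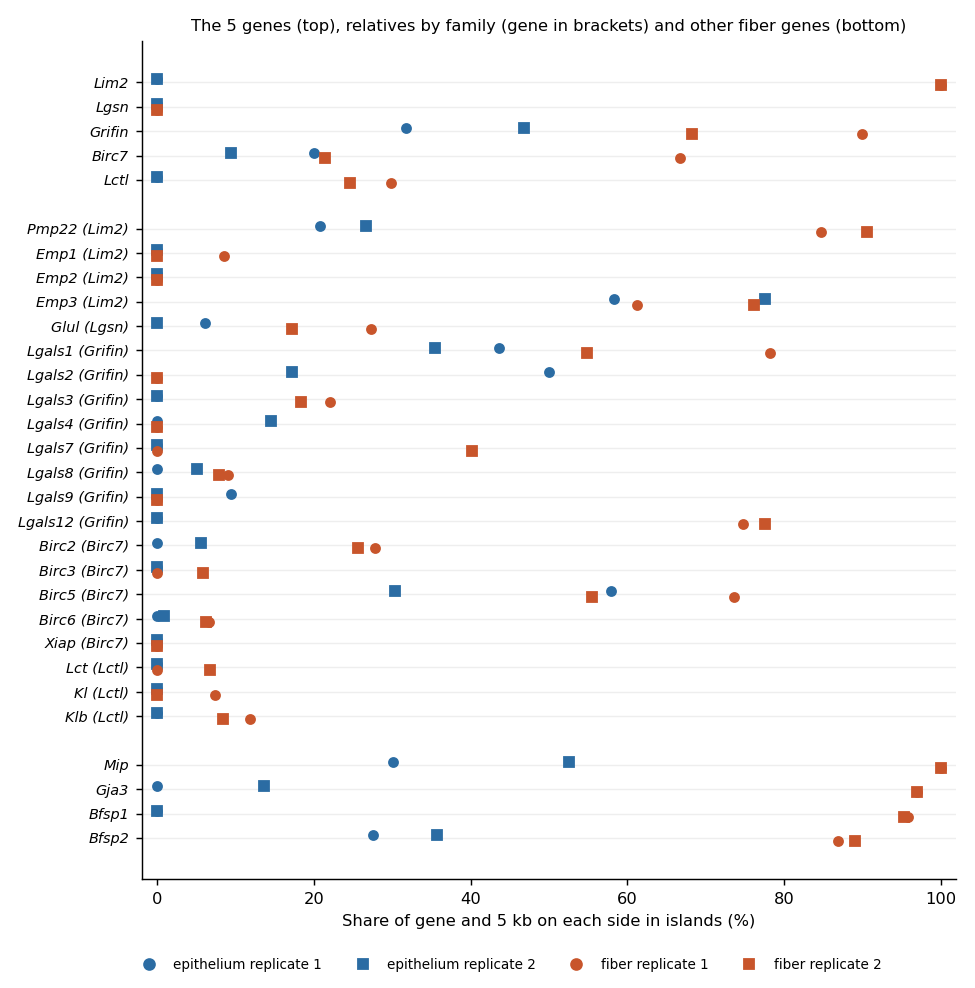
Covered share of the window (%) in each library for the 5 genes, their 21 relatives (the related gene in brackets) and 4 other fiber genes, with epithelium in blue and fibers in orange. All 4 other fiber genes have both fiber points at 86.9% or more, a level that Lim2 reaches in both fiber libraries and Grifin in 1.

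Against the other fiber genes the 5 genes were less uniform. Mip, the lens water channel gene, had 30.05% and 52.6% in epithelium and 100% in both fiber libraries, and Gja3, a connexin gene, had 0% and 13.7% against 97.03% in each fiber library. Bfsp1, which encodes the beaded filament protein filensin, was closest to Lim2 of these, with 0% in both epithelium libraries and 95.8% and 95.3% in fibers. The median difference was 74.4 percentage points over these 4, 42.02 over the 4 epithelial marker genes and 29.4 over the 5 genes described here, so that it was larger for epithelial markers than for the 5 genes.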

How the data were processed

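H3.3 ChIP-seq of 4 libraries was used, 2 each from lens epithelium and lens fibers. Reads were single-end, 75 nt long, and were aligned by the authors to mm10 using BWA's aln and samse at default settings. For every library separately, SICER2 then gave islands (200 bp windows, gaps up to 600 bp, FDR 0.01). Each line of the deposited lists holds an island's coordinates and its count of ChIP reads, a raw count without normalization by the authors. Whether duplicates were removed, reads filtered or the input used as control is not given in the sources used here. The Methods place the experiment at another newborn time and with another number of lenses than the sample labels, and the labels were followed. Sequencing depth is not known, since only called islands are listed, so that no interval or detection floor was computed and the number of libraries limits the precision.

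Positions are given counting from 1. An island was assigned to a window when they had at least 1 bp in common. Windows of all 21938 protein-coding genes of GENCODE vM21 on chromosomes 1 to 19, X and Y were treated alike. Epithelium and fibers were compared by an exact two-sided permutation test of the difference of means. The 5 genes and all gene lists were chosen with earlier results of these data known. The genes named are the 5, every gene whose body overlaps their windows or the Lim2 island, the relatives by family, 4 other fiber genes (another on that list is not reported here), markers of other cells and, for each of the 5, the 3 genes nearest in covered share of flanks and body. Genes under the Lim2 island beyond its window, the nearest islands to Lgsn and the counts within 500 kb were added after the data were seen. The limits of full cover in fibers and of 3 or more Maf cores were not planned and equal the values of Lim2 and Lctl. Promoters are from RefSeq on GRCm38.p6, matched by symbol for all 5 genes, and were found identical to the genome sequence. A stretch of 75 nt was taken as repeated if the genome holds it at another position, on any strand.

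Replicate numbers were checked for pairing by the correlation of the difference between replicates 1 and 2 in epithelium with that in fibers over 14147 genes. It was 0.00635, and the libraries were not treated as paired. The alternatives left out each library, changed the flank to 0, 2 or 10 kb, cut the lists to equal numbers of islands, dropped islands below the median reads per kb or below 600 bp, merged those within 1 kb, used a replicate block and divided reads by the library's total in islands. The steps, written for Python 3.11.15 (scipy 1.17.1, numpy 2.4.6, matplotlib 3.10.9, numba 0.67.0), were tested on simulated data. Bisulfite data and the input were not analysed here.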

Additional observations from a re-analysis of the deposited data

How the results depend on the processing

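Of 166 values recomputed under alternatives for 13 results, 152 kept their direction within the limits set, 8 turned and 6 moved. The 152 include values that could not turn. Those of Lgsn were 0 throughout, the replicate block changes only p, and no island at these genes was below 600 bp. A number of genes of 3 against 4 was also taken as kept. Lim2 kept its difference in covered share and longest island under every alternative run, with 86.1 percentage points at 10 kb on each side as the lowest covered share, and Lgsn stayed at 0. With lists cut to equal numbers of islands, the difference at Birc7 turned to -10.0 percentage points and -1500 bp of longest island by most reads, and to -4.00 points and -600 bp by highest reads per kb, the latter also with islands of at least the median reads per kb. At Lctl, whose islands are below the median density, highest reads per kb and the median limit gave 0 points and 0 bp, and the number of genes with both fiber values above both epithelium values was then 2, against 4. It was 3 with the gene body alone, with 2 kb on each side and with most reads. Of all genes, 45.0% separated in this way in the main setting, 21.4% with most reads and 15.6% with highest reads per kb. For the gene body alone, 2 kb on each side and the median limit no such share is at hand, so these counts say nothing particular to the 5 genes. Reads per kb at Grifin turned to 1.21 with 10 kb on each side, and merging islands within 1 kb moved its difference in longest island from 6400 to 20100 bp. Without 1 library at a time, the difference ranged from -7.75 to 0.610 reads per kb at Birc7 (the upper end without fiber replicate 1), from 6.67 to 52.0 points in covered share and from 1000 to 3400 bp in longest island. At Grifin it ranged from 28.9 to 50.6 points. With reads divided by the library's total in islands, a scaling whose divisor grows with the length covered, both epithelium values of reads per kb lay above both fiber values at Grifin and at Birc7. A replicate block left the differences in covered share unchanged, at 39.8 points for Grifin, with an exact permutation p of 0.50, the smallest it allows. Reads per kb had no value where a library had no island, which left out Lim2, Lgsn and Lctl, the equal-number and median settings at Birc7, and the gene body alone at Grifin. A gene without a called island may still carry H3.3 below the calling threshold, which these lists cannot show.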
